A study of Schizosaccharomyces pombe with 2 samples.

Results

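Of the 9 sterol genes followed here, 6 encode enzymes or partners of sterol synthesis (erg10, hmg1, erg1, erg11, erg25 and erg28) and 3 encode the sterol-sensing regulators sre1, scp1 and ins1. They were chosen by name, and 8 of the 9 had a probe, among 5006 gene probe names on the arrays. All 8 passed the filter on dim signal and were among the 4854 genes tested. The gene erg11, which encodes the lanosterol demethylase, had no probe under its symbol or locus tag. The members were picked with earlier results of these arrays in view, so their values are given as measurements of a chosen list.

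Ergosterol is the main membrane sterol of yeasts. Its synthesis starts from acetyl-CoA, runs through mevalonate and squalene, and ends with a series of oxidations and demethylations, several of which need molecular oxygen. In fission yeast the membrane-bound transcription factor Sre1 is released by proteolysis when sterols or oxygen run low, and its free part turns on sterol synthesis genes and the sre1 gene itself. Scp1 is the sterol-sensing escort of Sre1, and Ins1 is the homolog of mammalian INSIG, known in fission yeast for its control of the HMG-CoA reductase Hmg1.

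The cells were wild-type Schizosaccharomyces pombe carrying the plasmid pDUAL-Ssn6, from which Ssn6 is expressed, and wild-type cells carrying pDUAL-EMPTY. Ssn6 is a subunit of the Ssn6-Tup corepressor. Both cultures grew logarithmically at 30 °C in MM-URA, a minimal medium without uracil that keeps the plasmid under selection. Each of 2 spotted arrays held both cultures in its 2 colours, and the labels give Cy3 to the Ssn6 culture on array 1 and Cy5 on array 2. Neither the plasmid promoter nor the number of clones is named in the labels. The design text speaks of 2 independent RNA preparations without saying whether they came from separate cultures, so the p-values cover the spread of these 2 hybridisations and possibly no more than technical variation.

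The scanner files call the colours channel A and channel B and name neither a dye nor a culture. Every ratio below is therefore channel B over channel A. The ssn6 spots, which check the overexpression, were brighter in channel B on both arrays, by 6.16-fold and 8.1-fold on array 1 and by 8.86-fold and 8.29-fold on array 2. The normalized log2 ratio of ssn6 was 2.04 ± 0.19 (SD, n = 2). The partner gene tup11 had 0.26 ± 0.14 and was not called (adjusted p = 0.265 in limma), and tup12 had no matched probe. A swap of dyes with fixed channels would have given ssn6 opposite signs on the arrays, and the ratios of all genes ran the same way on both (Pearson r = 0.807 across 4854 genes, which are not independent replicates). Read by ssn6 alone, channel B would hold the Ssn6 culture on both arrays, and higher in channel B would mean higher with Ssn6 overexpressed. If each channel were also 1 fixed dye, a difference between dyes could not be told apart from a difference between cultures. No label or header states which culture each channel holds, so the ratios stay named by channel. If the labelled swap applied to the channels, the arrays would oppose each other for every called member. With the sign of array 1 turned 0 of the 8 members passed the test in limma. So did 0 of all genes, and ssn6 itself fell to 0.13, because the turn cancels any ratio that both arrays share. The turned setting therefore says nothing about the members in particular.

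Within the list, 3 of the 5 tested synthesis genes were higher in channel B and 2 were not called, and the regulators went different ways. The test was limma's moderated test of the mean log2 ratio against 0 after loess normalization, with Benjamini-Hochberg adjustment over all 4854 genes and a threshold of 0.05. By it, erg28, erg10, erg1 and sre1 were higher in channel B, ins1 was lower, and hmg1, erg25 and scp1 did not pass. Thus 4 of 8 members were higher, where 11.5% of all genes tested were, and 1 of 8 was lower, where 16.7% of all genes were. A 1.5-fold difference on each array was reached by 3 members higher and 1 lower, beside 6.26% and 11.6% of all genes. The median log2 ratio was 0.75 over the 5 synthesis members and -0.49 over the 3 regulators, beside 0.015 over all genes. After loess each member had the same sign on both arrays, which held for 75.9% of all genes.

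**Figure D1:**
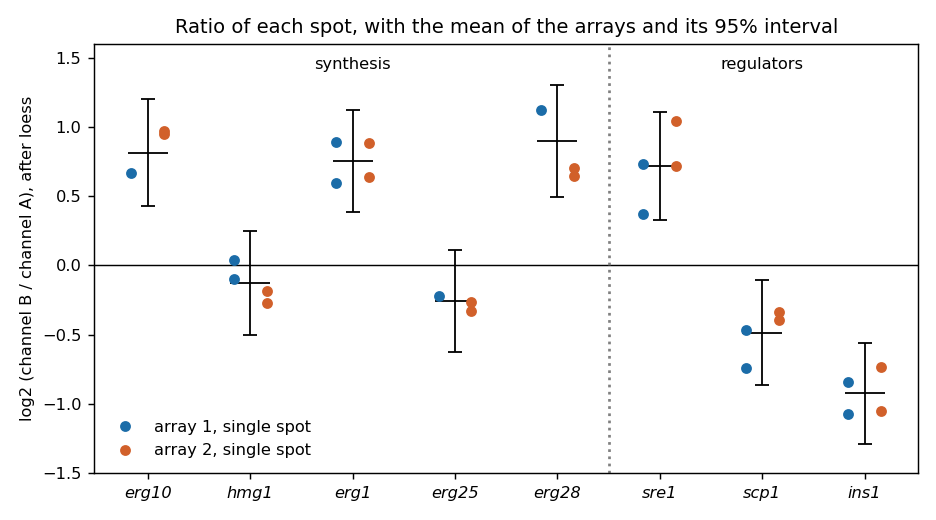
Log2 of channel B divided by channel A, loess-normalized (vertical axis), for the 8 members with a probe; each point is 1 spot, blue for array 1 and orange for array 2, and the black bar and whiskers are the mean of the arrays with its 95% interval from limma. The spots of erg10, erg1, erg28 and sre1 all lie above 0, those of erg25, scp1 and ins1 all lie below it, and those of hmg1 straddle it.

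The pathway opens with erg10, which encodes the acetyl-CoA C-acetyltransferase that joins acetyl-CoA units. Its spot on array 1 read 360813 in channel A and 982349 in channel B. Its spots on array 2 read 388608 and 414671 in channel A and 1242086 and 1377042 in channel B. Channel B was the brighter one in all 3 spots, by 2.72-fold, 3.2-fold and 3.32-fold before normalization.

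After loess the log2 ratio of erg10 was 0.67 on array 1 and 0.96 on array 2, with a mean of 0.82 ± 0.20 (SD, n = 2; adjusted p = 0.00761 in limma), a 1.76-fold difference. The 95% interval ran from 0.43 to 1.20. The size of this ratio depended on the scaling, since the log2 ratios of these bright spots were 0.45 to 0.59 lower after loess than with each array centred on its median. With median centring erg10 had 1.26 on array 1, 1.43 on array 2 and a mean of 1.34. Its call held either way.

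The gene hmg1 encodes HMG-CoA reductase, the rate-limiting enzyme of the mevalonate route. Its spots on array 1 read 154674 and 168956 in channel A and 168014 and 207258 in channel B. On array 2 they read 244828 and 195084 in channel A and 264591 and 220252 in channel B. Channel B was brighter in all 4 spots before normalization, by 1.08-fold to 1.23-fold. This is near the general excess of channel B. With each array centred on its median, hmg1 had a log2 ratio of 0.021 on array 1 and -0.13 on array 2.

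After loess hmg1 had a log2 ratio of -0.027 on array 1 and -0.23 on array 2. Its mean was -0.13 ± 0.14 and did not pass (adjusted p = 0.597 in limma). The interval from -0.50 to 0.25 leaves out a rise as large as the means of erg10, erg1 and erg28. Among the mean ratios of all genes hmg1 stood at percentile 38.8.

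Squalene monooxygenase, the first oxygen-using enzyme of the sterol branch, is encoded by erg1. On array 1 its spots read 96734 and 238563 in channel A and 204642 and 489697 in channel B. On array 2 they read 170143 and 173051 in channel A and 343710 and 418830 in channel B. All 4 spots were brighter in channel B, by 2.02-fold to 2.42-fold.

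The log2 ratio of erg1 was 0.75 on array 1 and 0.76 on array 2, with a mean of 0.75 ± 0.012 (adjusted p = 0.00895 in limma), a 1.69-fold difference. The arrays were closer to each other than the duplicate spots within them, which differed by 0.30 on array 1 and 0.25 on array 2. The SD between the arrays therefore understates the spread of single erg1 spots. Across all genes the median difference between duplicate spots was 0.19 on array 1 and 0.14 on array 2.

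The genes erg25 and erg28 serve the same demethylation step. Erg25 is the methylsterol oxidase that uses oxygen to attack the methyl groups on the sterol ring, and Erg28, from work in budding yeast, is the scaffold that holds the demethylation enzymes together.

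The erg28 spot on array 1 read 103052 in channel A and 260706 in channel B, a 2.53-fold difference. On array 2 its spots read 138765 and 143649 in channel A and 277152 and 300886 in channel B, which is 2-fold and 2.09-fold. The log2 ratio after loess was 1.12 on array 1 and 0.67 on array 2. The mean of erg28, 0.90 ± 0.31 (adjusted p = 0.00617 in limma), was the highest of the members after loess over the whole array, a 1.86-fold difference. That rank depended on the scaling. The erg10 mean was higher with median centring, with print-tip loess (1.19 against 0.82) and in the authors' deposited values. The erg28 interval from 0.49 to 1.30 overlapped those of erg10, erg1 and sre1. In the gene table erg28 overlaps its neighbour dre2, whose own log2 ratio was -0.040. The labels do not say whether the spotted probes read only 1 strand, and 7 of the 8 members overlap a noncoding gene in the table.

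The erg25 spots were also brighter in channel B before normalization, by 1.51-fold on array 1 (517118 in channel A and 782186 in channel B) and by 1.38-fold and 1.37-fold on array 2. The spots on array 2 read 697340 and 577703 in channel A and 960208 and 789561 in channel B. After loess the log2 ratio was negative, at -0.22 on array 1 and -0.30 on array 2, and its spots were 0.44 to 0.63 lower than with median centring. The mean was -0.26 ± 0.055 (adjusted p = 0.261 in limma, not past the threshold). Median centring gave 0.30, with no call either (adjusted p = 0.213). The direction of erg25 is therefore not settled by these arrays.

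For erg10, erg28 and erg25 array 1 supplied 1 spot each, because the second spot had no signal there. The second spots of erg10 and erg28 lie in the same block of the array, in which 27.5% of the gene spots had no signal on array 1. The block that holds the second erg25 spot lacked signal in 7.01% of its gene spots. No spot of any member held saturated pixels.

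**Figure D2:**
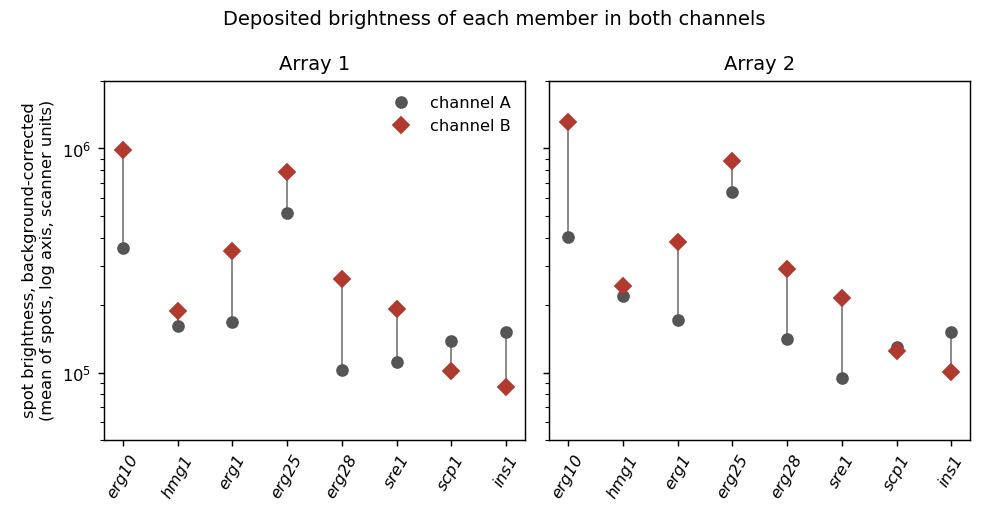
Deposited brightness of each member (vertical log axis, mean of its spots, scanner units) in channel A (grey circles) and channel B (red diamonds) on each array; brightness is comparable only between the channels of a gene, since each probe has its own response. Channel B lies above channel A for erg10, hmg1, erg1, erg25, erg28 and sre1 on both arrays, and below it for ins1 and scp1. The values are not normalized, and the median gene was also brighter in channel B on both arrays.

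The sre1 probe stands for the transcription factor itself. Its spots on array 1 read 120900 and 102424 in channel A and 235185 and 148344 in channel B. On array 2 they read 108106 and 80101 in channel A and 223911 and 205109 in channel B. All 4 spots were brighter in channel B, from 1.45-fold on array 1 to 2.56-fold on array 2.

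After loess sre1 had a log2 ratio of 0.55 on array 1 and 0.88 on array 2, a mean of 0.72 ± 0.23 (adjusted p = 0.0143 in limma) and a fold of 1.64. It missed the 1.5-fold mark on array 1 only. Its duplicate spots differed by 0.36 on array 1 and 0.33 on array 2, more than those of any other member on the same array. The scaling hardly touched it, with 0.74 under median centring.

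Scp1, the escort that binds Sre1 in the membrane and senses sterols, had spots of 136692 and 139663 in channel A and 90224 and 112957 in channel B on array 1. On array 2 they were 135868 and 124215 in channel A and 128428 and 121418 in channel B. Channel A was the brighter one in all 4 spots, though by little on array 2 before normalization. The log2 ratio was -0.61 on array 1 and -0.37 on array 2, with a mean of -0.49 ± 0.17 that did not pass (adjusted p = 0.0576 in limma). Its interval, before adjustment, ran from -0.86 to -0.11. The gene of the factor and the gene of its escort thus had ratios of opposite sign. Their unadjusted intervals did not overlap, but scp1 was not called and the difference between the genes was not tested.

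The member lowest in channel B was ins1, the INSIG homolog. On array 1 its spots read 103073 and 200067 in channel A and 62830 and 108960 in channel B. On array 2 they read 161990 and 141809 in channel A and 96718 and 105123 in channel B. Channel A was brighter in all 4 spots.

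The log2 ratio of ins1 was -0.96 on array 1 and -0.89 on array 2. Its mean was -0.93 ± 0.045 (adjusted p = 0.00332 in limma), which is 1.9-fold higher in channel A. Median centring gave -0.92 and print-tip loess -0.94. Of all genes tested, ins1 stood at percentile 8.1 of the mean ratios, and erg28, erg10, erg1 and sre1 stood between percentiles 93.7 and 96.8. Against the whole array these are moderate ratios.

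**Figure D3:**
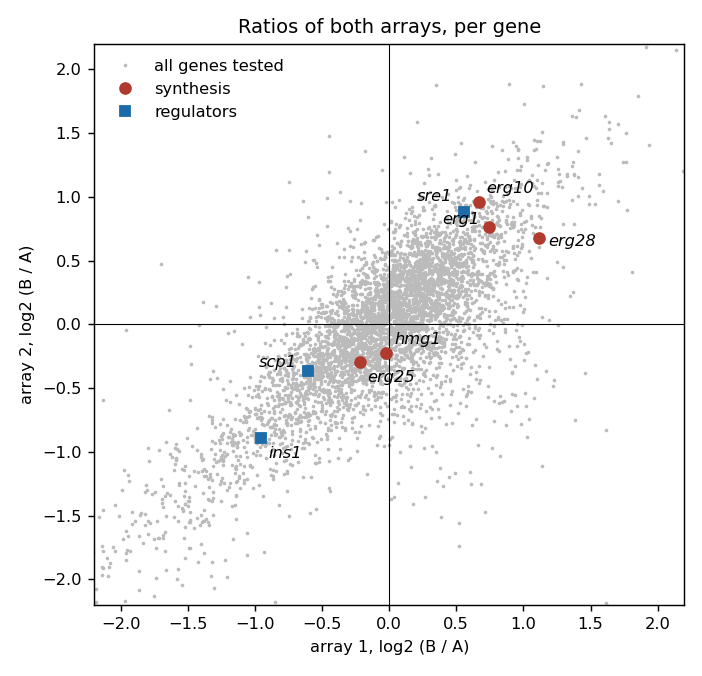
Log2 of channel B divided by channel A on array 1 (horizontal) and array 2 (vertical) for all genes tested (grey; 97 genes beyond ±2.2 are not drawn), with synthesis members as red circles and regulators as blue squares. The members erg10, erg1, erg28 and sre1 lie together at the upper right, ins1 and scp1 at the lower left, and hmg1 and erg25 near the centre, all within the range of other genes.

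Other genes of the pathway were followed in 5 lists, which leave out the members. Of 10 listed genes of mevalonate and isoprenoid synthesis 7 had a tested probe, and of 15 listed genes of later sterol steps 13 did. Of these 20 genes 5 were higher in channel B, 0 were lower and 15 were not called. Their median was 0.32. At an unadjusted p under 0.05 in limma, counted over all 46 tested genes of the 5 lists, there were 21 genes in either direction. After adjustment there were 11. Among all 4854 genes these counts were 2022 and 1372, so the 46 genes were not called more often than all genes after adjustment. Together with the members, 8 of 25 synthesis genes were higher and 0 lower, beside 11.5% and 16.7% of all genes. Of the 25, 17 had a positive ratio on both arrays and 3 a negative one on both. Among all 4854 genes tested, 1880 were positive on both and 1803 negative on both.

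The rule for naming genes of these lists was that they passed the test and changed 1.5-fold on both arrays. The phosphomevalonate kinase gene erg8 was 0.63 on array 1 and 0.67 on array 2 (mean 0.65 ± 0.029, adjusted p = 0.0173 in limma). The sterol isomerase gene erg2 was 0.80 and 0.91 (mean 0.85 ± 0.081, adjusted p = 0.00511), a ratio like those of erg1, erg10 and erg28. Outside that rule, and chosen after their values were seen, the isopentenyl diphosphate isomerase gene idi1 (0.64 ± 0.33), the lanosterol synthase gene erg7 (0.66 ± 0.23) and the sterol reductase gene erg24 (0.54 ± 0.12) also passed. The lowest of the 20 was the sterol desaturase gene erg5, at -0.40 ± 0.23, which did not pass (adjusted p = 0.107) and was 0.34 with median centring.

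A pair of probes could not be tied to a listed gene and were not counted. The name hcs is a synonym of both hcs1, the HMG-CoA synthase gene, and pac1. That probe had a log2 ratio of 0.68 on array 1 and 0.94 on array 2 (mean 0.81 ± 0.18, adjusted p = 0.00766 in limma). The name cyp51 is in no entry of the gene table, and CYP51 is the family name of the sterol demethylases to which Erg11 belongs. That probe had 0.66 on array 1 and 0.31 on array 2, and its mean of 0.48 ± 0.25 was not called (adjusted p = 0.0659). Median centring gave 0.67 and a call (adjusted p = 0.0159).

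Among the other genes of Sre1 control, 11 were tested, of which 2 were higher, 0 lower and 9 not called, beside 11.5% and 16.7% of all genes. Their median was -0.024 after loess and 0.28 with median centring. The higher one named by the rule was nro1, whose product inhibits Ofd1, the prolyl hydroxylase-like protein that speeds the breakdown of free Sre1. It had 0.77 on array 1 and 0.87 on array 2 (mean 0.82 ± 0.072, adjusted p = 0.00601 in limma). The other was ubc4, a ubiquitin-conjugating enzyme gene, chosen after its value was seen, at 0.51 ± 0.11 (adjusted p = 0.0462). The size of the ubc4 ratio depended on the scaling, with 1.25 under median centring and 1.23 under print-tip loess. The genes of the Dsc ubiquitin ligase, which is needed for Sre1 cleavage, did not pass, and ranged from dsc1 at -0.57 ± 0.46 to dsc2 at 0.50 ± 0.35. The second SREBP gene sre2 (0.38 ± 0.011) and ofd1 (0.23 ± 0.27) did not pass either.

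The genes that store sterols as esters were on the other side. Both sterol acyltransferase genes were lower in channel B, are2 with -1.43 on array 1 and -1.52 on array 2 (mean -1.48 ± 0.063, adjusted p = 0.000292 in limma). The values of are1 were -0.78 and -0.72 (mean -0.75 ± 0.041, adjusted p = 0.00913). Lower calls thus made up 2 of the 8 tested genes of sterol transport and esterification, beside 16.7% of all genes. The other 6 did not pass, and they lay between -0.19 and 0.29. Under median centring are2 had -1.44 and are1 -0.80.

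A list of 7 genes was drawn up as linked to oxygen and heme outside sterol synthesis, a link that was not tested here. Of these, 0 were higher, 2 were lower and 5 did not pass, beside 11.5% higher and 16.7% lower among all genes. The lower ones were the alcohol dehydrogenase gene adh4 (-1.92 on array 1 and -1.47 on array 2; adjusted p = 0.000238 in limma) and fhn1 (-1.34 and -1.27; adjusted p = 0.00055). The coproporphyrinogen oxidase gene hem13, which needs oxygen, was positive on both arrays at 0.49 and 0.41 but did not pass (adjusted p = 0.0677). The fatty acid desaturase gene ole1 had -0.083 and -0.57 and did not pass (adjusted p = 0.21). Its mean was -0.33 after loess and 0.41 with median centring.

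**Figure D4:**
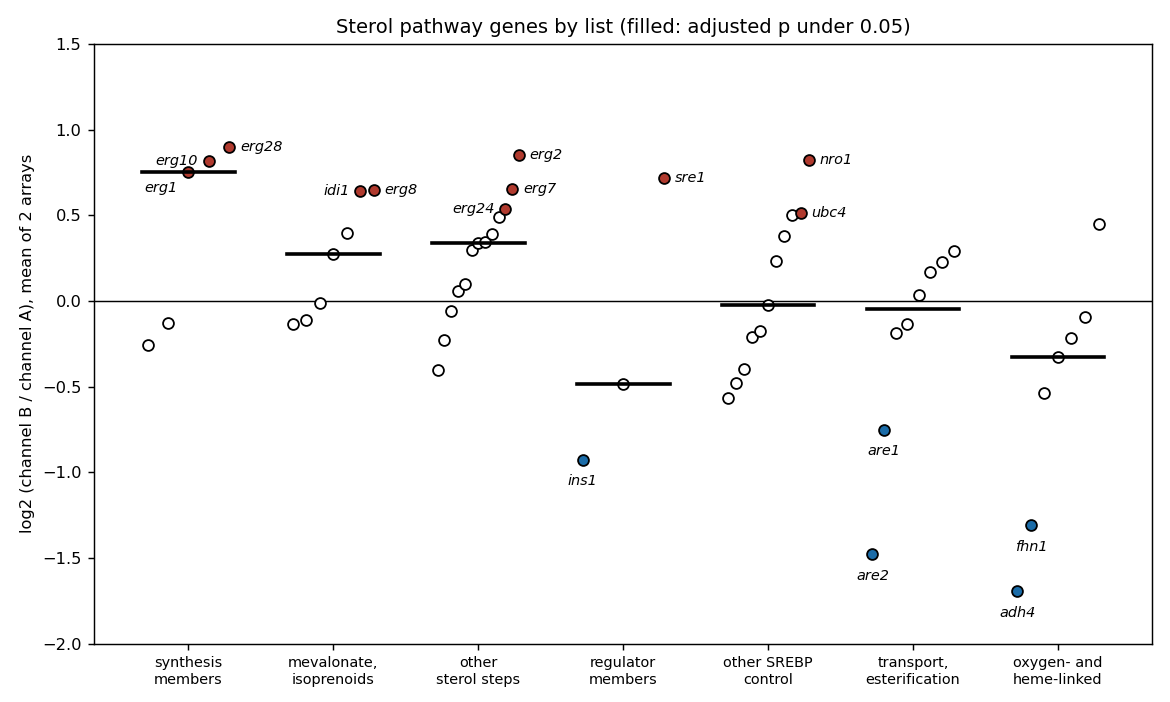
Mean log2 of channel B divided by channel A over 2 arrays (vertical axis) for each tested gene of the 7 lists, with filled points for an adjusted p under 0.05 (red higher, blue lower), open points for the others and a bar at each list's median. Called genes of the 3 synthesis lists all lie above 0, and called genes of the transport and oxygen lists all lie below it.

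The genes beside the members on the chromosomes were compared as well. Of the 15 nearest protein-coding genes with a tested probe, 0 were higher in channel B, 4 were lower and 11 were not called, where 11.5% of all genes were higher and 16.7% lower. Their median was -0.033. The widest gap was at erg10, whose neighbour arg4, an arginine synthesis gene, had a ratio of -2.22 (adjusted p = 0.000138 in limma).

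The authors' deposited table, lowess-normalized and based on 1 spot per array for each member, gave each member the sign reported above except erg25. In the authors' deposited table the log10 ratios were 0.3 and 0.38 for erg10, 0.28 and 0.22 for erg1, 0.35 and 0.22 for erg28 and 0.23 and 0.24 for sre1. For ins1 the authors' deposited table gave -0.25 and -0.29, for scp1 -0.21 and -0.09, for hmg1 -0.02 and -0.05, and for erg25 0.04 and 0. In limma on those values 0 of the 8 members passed after adjustment, as did 0 of 4811 genes, and 5 of the 8 had an unadjusted p under 0.05, beside 1784 of all genes. The smallest adjusted p among the members was then 0.0744.

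**Figure D5:**
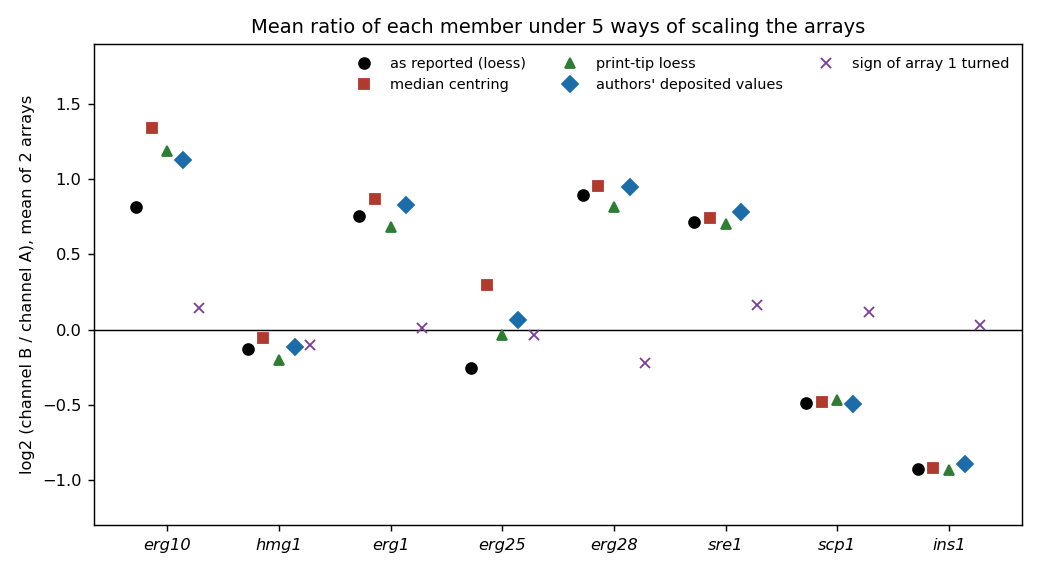
Mean log2 of channel B divided by channel A for the 8 members (vertical axis) as reported and under 4 other ways of scaling the arrays, each with its own symbol. Values of erg1, erg28, sre1, hmg1, scp1 and ins1 stay close together apart from the crosses, where the sign of array 1 was turned; erg10 spreads from 0.82 to 1.34 and erg25 crosses 0.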

How the data were processed

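The authors deposited, per the file headers, a scanner file for each array with the background-corrected intensity of each spot in both channels, the background intensity, the ratio of channel A over channel B, a saturation factor given as a fraction, and flags. They also deposited a log10 value table, lowess-normalized per the series' design text. Its first 5760 rows followed channel B over channel A (r = 0.916 and 0.941) and were used as an alternative, while later rows did not (r = 0.0356 and 0.0566). No label or header names scanner, grid or annotation versions. The deposited ratio columns were not needed.

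An offset of 50 was added to each intensity, log2 ratios were normalized by loess (span 0.3) within each array, controls weighted 0, and spots of a probe were averaged. Of 5006 probe names, 152 were left out because they lacked signal on an array or were dim there (both channels under the 95th percentile of 822 negative controls), leaving 4854. Limma 3.58.1 (R 4.3.3, with version 1.17.8 of data.table) tested the mean against 0, with 1 residual and 7.59 prior degrees of freedom. The fit was tested on simulated data. Names came from the RefSeq ASM294v3 gene table (4777 matched, 229 not). Median gene intensity was 76938 to 90289, and the number of arrays limits the precision. No promoter or protein sequence was used here, so the planned motif search was not run.

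The members and lists were chosen with earlier results of these data known. The rule was to name all members, and pathway genes past the adjusted p and 1.5-fold on both arrays. Outside that rule the text also names idi1, erg7, erg24, ubc4, erg5, dsc1, dsc2, sre2, ofd1, hem13 and ole1.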

Additional observations from a re-analysis of the deposited data

How the results depend on the processing

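The log2 ratio of each array already pairs both cultures, and no replicate block could be added with 1 group of arrays. The 5 calls among the members held under print-tip loess, median centring, offsets of 0 and 200, normexp, no dim filter, spots without saturation, spots that the scanner files flag C alone, and the median of spots. Print-tip loess and median centring moved these 5 ratios most (erg10 from 0.82 to 1.19 and 1.34). Most of the other settings could hardly move them. With at most 2 spots per array the median equals the mean, no member spot was saturated, and the dim filter kept every tested member. The member erg25 had the opposite sign under median centring (0.30) and in the authors' deposited table (0.066). With the authors' deposited values 0 members, 0 pathway genes and 0 of all genes passed in limma (unadjusted p under 0.05: 5, 16 and 1784), and 5 pathway genes and 472 of all genes were 1.5-fold higher. With median centring the members' median was 0.52 against 0.30, 462 of all genes were 1.5-fold higher against 304, and of the genes past the adjusted p 47.7% were higher against 40.7%. With the sign of array 1 turned 0 members, 0 pathway genes and 0 of all genes passed in either direction (unadjusted p under 0.05: 0, 0 and 6), and 1.5-fold on both arrays were 0 members, 0 pathway genes, 3 of all genes higher and 27 lower. Signs opposite to the reported means were then those of erg28 (-0.22), scp1 (0.12), ins1 (0.032), idi1 (-0.24), erg7 (-0.17), are1 (0.029), adh4 (0.22), fhn1 (0.036) and cyp51 (-0.17). These values are what remains once ratios shared by both arrays cancel, and ssn6 fell to 0.13 as well. The call of ubc4 was lost without the dim filter (adjusted p = 0.0523) and that of hcs with print-tip loess (adjusted p = 0.0568). The cause of these differences was not tested. On 1 array alone, with no test, 1.5-fold higher were 3 to 4 members, 5 to 7 pathway genes and 577 to 596 of all genes, and lower were 1 to 2 members, 4 to 8 pathway genes and 786 to 845 of all genes. The second member lower on array 1 alone was scp1.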
